A study of Mus musculus with 6 samples.

Results

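The genes described here are 9 that mark classical monocytes or belong to the Ly6 family: Ly6c1, Ly6c2, Ly6a, Ly6e, Plac8, Gpr141, Hp, Vcan and F13a1. They were taken by symbol from a table of 23302 genes. All 9 are protein-coding, all were found and all passed the filter on low values, which 11838 genes passed. Levels are in FPKM (fragments counted on a gene per kilobase of its length, scaled to the library's mapped total), measured in macrophages of malignant pleural effusion (MPE) from mice on a C57BL/6 background. MC38 colon adenocarcinoma cells were injected into the pleural cavity 10 days before the effusion was collected, and macrophages were isolated from its mononuclear cells with anti-F4/80 microbeads. The protocol also mentions culture in DMEM, and whether RNA was taken before it is not stated. The groups were 3 libraries labelled IL-10-/-, from mice lacking the cytokine IL-10 throughout the body, and 3 WT libraries. Mice were matched for age, weight and sex. The study's supplement gives different suppliers for the IL-10-/- and the WT mice, so supplier and genotype cannot be told apart, and whether 1 mouse or several went into each sample is not labelled. The p-values therefore measure the spread between these samples, which may be technical.

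Classical monocytes leave the bone marrow in a Ly6C-high state, enter inflamed tissue and cavities, and there become macrophages. As they mature they lose Ly6C and other monocyte transcripts, while macrophage genes come up. The Ly6 proteins are small surface proteins held in the membrane by a lipid (GPI) anchor. Ly6C marks classical monocytes and is also carried by some T cells and by endothelium. Several Ly6 genes, among them Ly6a and Ly6e, are induced by interferon. The other genes encode proteins made by classical monocytes. They are a small cysteine-rich protein (Plac8), an orphan receptor (Gpr141) and secreted proteins of hemoglobin clearance, matrix and clotting (Hp, Vcan and F13a1).

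Facts of the whole series bear on these genes in a few places. Il10 itself was at 59.2, 62.0 and 42.4 FPKM in the samples labelled IL-10-/- and at 6.43, 33.3 and 7.33 FPKM in the WT libraries, so the transcript was not lost in the samples labelled IL-10-/-, and both groups go by their labels here. Whether this Il10 transcript is complete cannot be read from a level per gene. Transcripts of all 10 macrophage identity genes were measured, among them Adgre1, which encodes F4/80, at 65.2 to 228 FPKM in the samples labelled IL-10-/- and 73.0 to 147 FPKM in WT. The absolute depth is unknown, but ratios of low genes between libraries gave the relative number of fragments behind 1 FPKM. With WT replicate 1 set at 1, it was 1.20 to 1.44 in the samples labelled IL-10-/- and 0.982 to 1.23 in the WT libraries. In RNA of a bulk preparation, fewer cells of a type and less RNA per cell cannot be told apart.

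The upstream sequences of the genes that passed the test, Ly6c1, Ly6c2 and Gpr141, are shown because Ly6c1 and Ly6c2 are near copies whose levels moved together. Each is the 250 bases before the outermost RefSeq start, in GRCm38.p6, on the minus strand, read 5′ to 3′. Positions are chr15:75048838-75049087 for Ly6c1, chr15:75111972-75112221 for Ly6c2 and chr13:19824258-19824507 for Gpr141. Capitals mark a TATA box (TATAAA) or the core of a site for PU.1 (GAGGAAGT), a transcription factor of myeloid cells.
Ly6c1: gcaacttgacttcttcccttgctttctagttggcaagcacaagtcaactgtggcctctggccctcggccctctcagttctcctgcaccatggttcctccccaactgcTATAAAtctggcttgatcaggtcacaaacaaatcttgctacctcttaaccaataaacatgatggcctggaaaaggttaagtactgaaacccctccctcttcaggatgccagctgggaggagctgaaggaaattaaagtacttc
Ly6c2: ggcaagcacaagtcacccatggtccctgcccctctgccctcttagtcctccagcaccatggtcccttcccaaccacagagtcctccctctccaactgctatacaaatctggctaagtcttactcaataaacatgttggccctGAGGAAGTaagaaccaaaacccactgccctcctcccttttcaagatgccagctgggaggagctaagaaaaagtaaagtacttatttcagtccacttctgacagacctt
Gpr141: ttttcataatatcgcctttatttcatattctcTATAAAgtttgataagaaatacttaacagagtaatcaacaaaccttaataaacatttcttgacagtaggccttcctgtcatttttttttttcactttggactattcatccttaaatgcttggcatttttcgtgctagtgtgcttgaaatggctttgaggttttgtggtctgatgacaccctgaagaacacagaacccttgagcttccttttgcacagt
In a global alignment the Ly6c1 and Ly6c2 stretches were identical at 164 of 216 aligned bases (75.9%). GAGGAAGT, searched on both strands, was found upstream of Ly6c1, at an inner start whose window is not printed, and of Ly6c2, each time on the strand of the gene. It was found upstream of none of the other 4 genes with an entry (Plac8, Gpr141, Vcan and F13a1), and in 2.44% of 32851 mouse windows of the same length. The TATA box was in 12.4% of these windows. Such shares are per window, whereas a member with more than 1 start was searched in each of its windows. Neither of the interferon motifs searched on both strands, the STAT site TTCNNNGAA (in 7.02% of windows) and the IRF site ISRE (in 2.98%), was in the windows of the 6 genes, nor was the NF-kB site (0.0974%). Ly6a, Ly6e and Hp had no entry and were not searched. With shares this low and so few windows, finding none says little about how these genes are controlled. TTGCNNAA of C/EBP factors (9.56% of windows) was found at 1 inner start of Plac8. A match is a string of letters, not a site shown to be bound.

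Of the 9 genes, 3 rose in the samples labelled IL-10-/- (Ly6c1, Ly6c2 and Gpr141) and none fell, at an adjusted p under 0.05 from limma over all genes tested. At an unadjusted p under 0.05, 5 were higher and 0 lower. Over all genes tested, 1.09% passed the first rule, 0.608% higher and 0.482% lower, and 10.8% had an unadjusted p under 0.05. In 6 of the 9 genes all libraries labelled IL-10-/- were above all WT libraries, as in 7.8% of all genes tested, and in 0 were they below (7.59% of all genes, 15.4% in either direction). In the other 3, the secreted products, the groups overlapped. The median log2 difference was 1.02 over the 9 genes and -0.0025 over all genes. By the looser rule of a 2-fold change with an unadjusted p under 0.05, 5 of the 9 were higher (0.887% of all genes) and none lower (1.29%). The plot of levels by library shows these 6 genes apart from the 3 whose groups overlapped.

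**Figure D1:**
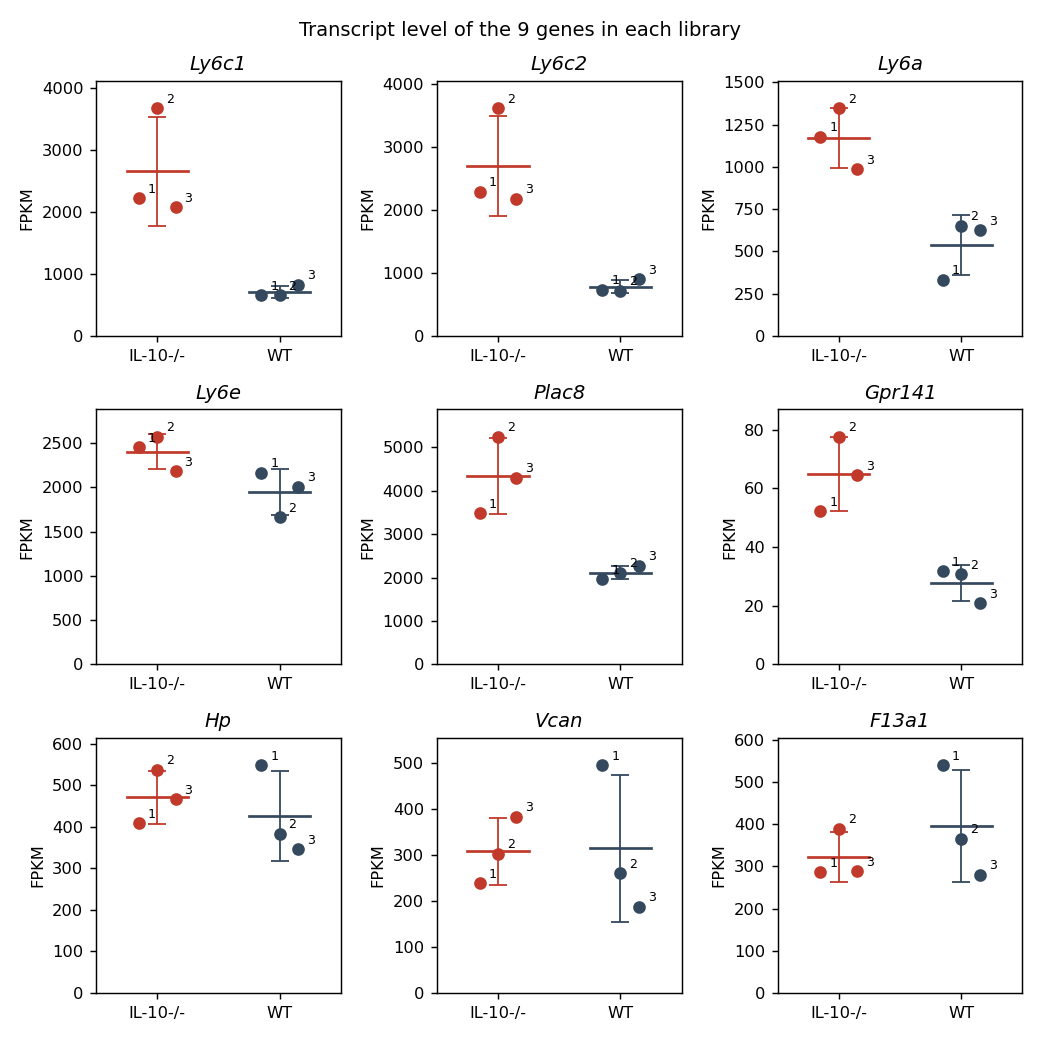
Level (FPKM, linear axis from 0) of each of the 9 genes in the 3 libraries labelled IL-10-/- (red, left) and the 3 WT libraries (dark, right), with replicate numbers, the mean (bar) and the SD (whiskers). The libraries labelled IL-10-/- lie above all WT libraries for Ly6c1, Ly6c2, Ly6a, Ly6e, Plac8 and Gpr141, barely so for Ly6e, and overlap with them for Hp, Vcan and F13a1.

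Ly6c2, the main Ly6C gene of monocytes, was at 2290, 3610 and 2176 FPKM in the samples labelled IL-10-/- and at 734, 715 and 903 FPKM in the WT libraries. The groups were far apart, and IL-10-/- replicate 2 was the highest. Ly6c2 averaged 2692 ± 797 FPKM in IL-10-/- and 784 ± 104 FPKM in WT (SD, n = 3 each), with a log2 difference, IL-10-/- minus WT on log2(FPKM + 1), (the log2 fold change of the plots), of 1.75 (standard error, SE, 0.24, adjusted p = 0.018). Ly6c1, its neighbor and near copy, best known from endothelium, was at 2223, 3666 and 2074 FPKM in the samples labelled IL-10-/- and at 655, 661 and 825 FPKM in WT. Its order of libraries within IL-10-/- was that of Ly6c2, and its log2 difference was 1.85 (SE 0.25, adjusted p = 0.018). For both genes the smallest exact two-sided permutation p for these group sizes, 0.1, was reached. The calls were lost without WT replicate 2 (adjusted p = 0.091 for Ly6c1 and 0.093 for Ly6c2), without WT replicate 3 (0.056 for both) and with no filter on low values (0.16 for both), while the log2 differences without 1 library stayed between 1.52 and 2.01.

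How far the reads of Ly6c1 and Ly6c2 can be told apart was examined in their sequences. Their coding sequences, of 393 bases each, were identical at 384 bases (97.7%), whereas that of Ly6a was identical to Ly6c2 at 83.5% of aligned bases and that of Ly6e at 60.2%. The paired reads were 150 bases long. Of the 695 windows of that length in the principal transcript of Ly6c1, 39 (5.61%) were also present in a transcript of Ly6c2, and no window of the transcript taken for each of the other members was present in another gene. The sources used here do not say how the authors assigned reads that fit both, so the level of each gene alone is uncertain. The ratio of Ly6c1 to Ly6c2 was 0.953 to 1.02 in the samples labelled IL-10-/- and 0.892 to 0.924 in WT. Their summed level, which depends little on that split, was 4513, 7276 and 4250 FPKM in the samples labelled IL-10-/- and 1389, 1376 and 1728 FPKM in WT, a log2 difference of 1.80 (p = 0.1 by exact two-sided permutation, which is as low as groups of this size can go).

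Ly6a encodes Sca-1, a surface protein of blood stem cells that activated leukocytes and endothelium also carry. It was at 1180, 1347 and 987 FPKM in the samples labelled IL-10-/- and at 333, 652 and 624 FPKM in WT. The groups did not overlap, but the WT libraries were themselves spread, with replicate 1 far below the others. The log2 difference was 1.18 (95% interval 0.54 to 1.81), and it did not pass the test (adjusted p = 0.12). Ly6e encodes an interferon-inducible protein best known for restricting virus entry. Its level was 2452, 2571 and 2184 FPKM in the samples labelled IL-10-/- and 2166, 1660 and 2007 FPKM in WT. The lowest value labelled IL-10-/- exceeded the highest WT value by very little, and the log2 difference of 0.31 did not pass the test (95% interval -0.12 to 0.74, adjusted p = 0.66).

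The 4 Ly6 members lie in 1 cluster on chromosome 15 of GRCm38, from the start of Ly6e at 74955051 (plus strand) over Ly6a (74994877 to 74998031) and Ly6c1 (75044018 to 75048830) to the end of Ly6c2 at 75111970 (these 3 on the minus strand), a span of 157 kb. The log2 differences ranged from 0.31 (Ly6e) to 1.85 (Ly6c1) along it. Ly6i, a further Ly6 gene between Ly6e and Ly6a, rose to 53.4, 40.6 and 30.5 FPKM in the samples labelled IL-10-/-, against 10.5 to 15.5 FPKM in WT (log2 difference 1.62, adjusted p = 0.020). Its call was lost without IL-10-/- replicate 1 (0.056), IL-10-/- replicate 2 (0.077) or WT replicate 3 (0.085). Ly6g, which encodes the neutrophil surface antigen and lies beyond Ly6c2, was at 0.701, 0.664 and 0.802 FPKM in the samples labelled IL-10-/- and at 1.38, 3.24 and 2.45 FPKM in WT. It reached the filter of 1 FPKM in WT alone, which fixes its direction, so no test is given and it is left out of the counts below. Ly6d, on the far side of Ly6e, had a log2 difference of -0.48 (adjusted p = 0.40), with every library labelled IL-10-/- below every WT library. Within 500 kb of the stretch from Ly6e to Ly6c2, 5 genes that are not members were tested apart from Ly6g. Of these 1 rose (Ly6i) and none fell, 4 had log2 differences above 0 and the median was 0.97. The others above 0 were Them6 (0.27) and the gene models Gm5960 (0.97) and I830127L07Rik (1.31), none of which passed the test. In the wider Ly6/uPAR family, 18 of 35 listed genes were in the table and 5 were tested apart from Ly6g. There too Ly6i alone rose and none fell (1 higher and 1 lower at an unadjusted p under 0.05 from limma), with a median log2 difference of -0.32. Plaur, the urokinase receptor of this family, was at a log2 difference of -0.39 (adjusted p = 0.58).

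**Figure D2:**
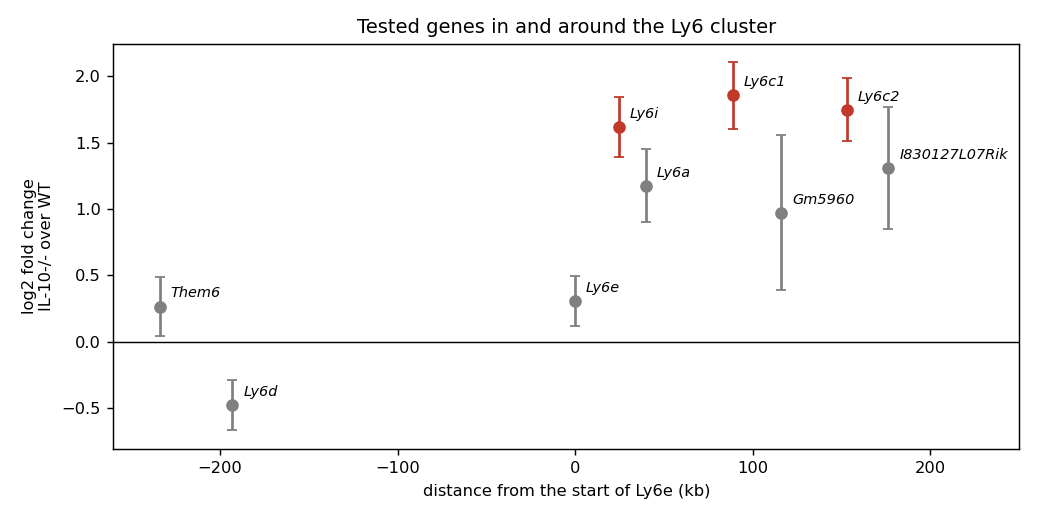
Log2 difference of FPKM + 1 (IL-10-/- over WT, vertical axis, whiskers: SE) of the tested genes around the Ly6 cluster, by distance from the start of Ly6e in kb. Red points passed the test: Ly6i (1.62), Ly6c1 (1.85) and Ly6c2 (1.75), while Ly6d (-0.48) lies below 0 and Them6 (0.27), Gm5960 (0.97) and I830127L07Rik (1.31) above it. Ly6g, which passed the filter through WT alone, is not drawn.

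Plac8 was the most abundant member in both groups. It was at 3483, 5240 and 4295 FPKM in the samples labelled IL-10-/- and at 1963, 2109 and 2269 FPKM in WT, without overlap and with little spread in WT. By mean level it ranked 22 among all genes in the samples labelled IL-10-/- and 90 in WT. The log2 difference of Plac8, which lies on chromosome 5 (100553725 to 100572245), was 1.02 (95% interval 0.53 to 1.51), and it missed the threshold (adjusted p = 0.084). It passed with 4 of the 15 alternative settings, values rescaled to 1 common sum (0.014) among them. Gpr141, an orphan G protein-coupled receptor of myeloid cells, was the least abundant member. Its level was 52.3, 77.6 and 64.6 FPKM in the samples labelled IL-10-/- and 31.9, 30.8 and 20.9 FPKM in WT. The groups were apart, with a log2 difference of 1.20 (SE 0.21, adjusted p = 0.043). This call was lost in each of the 6 fits without 1 library (adjusted p = 0.055 to 0.18), while the log2 difference stayed between 1.01 and 1.34, and it held in 5 of the 15 alternative settings. Gpr141 lies on the minus strand of chromosome 13 (19749682 to 19824257) and overlaps a pseudogene on the other strand, from which its reads cannot be told apart where counting ignored strand.

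**Figure D3:**
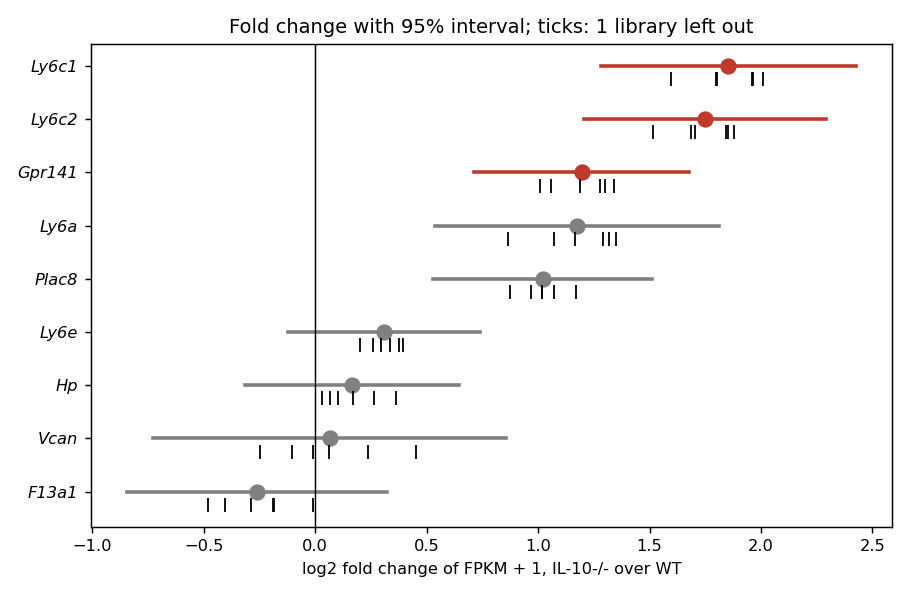
Log2 difference of FPKM + 1 (IL-10-/- over WT) of the 9 genes with 95% intervals from limma. Red marks an adjusted p under 0.05, and the small ticks under each line are the fits with 1 library left out. All ticks of Ly6c1, Ly6c2, Gpr141, Ly6a and Plac8 lie above 0.86, while those of Vcan lie on both sides of 0.

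The secreted products of classical monocytes passed no test in either direction. Their genes lie on the minus strand, F13a1 (36867178 to 37050244) and Vcan (89655312 to 89742509) on chromosome 13, each overlapping gene models on the other strand, and Hp (109575130 to 109579172) on chromosome 8 with no overlapping gene. F13a1 encodes the A subunit of coagulation factor XIII, a transglutaminase that crosslinks fibrin. It was at 287, 390 and 289 FPKM in the samples labelled IL-10-/- and at 540, 366 and 280 FPKM in WT (log2 difference -0.26, 95% interval -0.84 to 0.32, adjusted p = 0.82). Vcan encodes versican, a large proteoglycan that binds hyaluronan, and was at 238, 304 and 384 FPKM in the samples labelled IL-10-/- and at 496, 260 and 188 FPKM in WT. Its WT values spanned the whole range of the other group. The log2 difference of Vcan was 0.065 (95% interval -0.73 to 0.86, adjusted p = 0.97) and the ratio of its means 0.980, so that its sign depended on the scale. Hp encodes haptoglobin, which captures free hemoglobin, and was at 409, 538 and 466 FPKM in the samples labelled IL-10-/- and at 548, 383 and 346 FPKM in WT (log2 difference 0.17, 95% interval -0.32 to 0.65, adjusted p = 0.87). For these 3 genes WT replicate 1 was the highest of all 6 libraries and WT replicate 3 the lowest. These intervals leave room for changes of up to 0.86 on the log2 scale, so they do not show equal levels.

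Within a library, the ratio of Ly6c2 to F13a1 was 7.98, 9.26 and 7.54 in the samples labelled IL-10-/- and 1.36, 1.95 and 3.22 in WT, so every ratio labelled IL-10-/- exceeded every WT ratio. Hp and F13a1 kept closer together, at a ratio of 1.38 to 1.62 in the samples labelled IL-10-/- and 1.01 to 1.23 in WT, also without overlap. The ratio of Plac8 to F13a1 did not overlap either (12.1 to 14.9 in IL-10-/- and 3.63 to 8.10 in WT). That of Vcan to F13a1 did (0.779 to 1.33 and 0.670 to 0.918). How often ratios of other gene pairs separate the groups was not examined. Over the 6 libraries, which include the group difference, Pearson's r of log2(FPKM + 1) was 0.98 between Ly6c2 and Plac8, 0.90 between Ly6c2 and Gpr141 and 0.89 between Ly6c2 and Ly6a. It was 0.85 between Hp and Vcan, 0.71 between Vcan and F13a1, and -0.33 between Ly6c2 and F13a1.

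**Figure D4:**
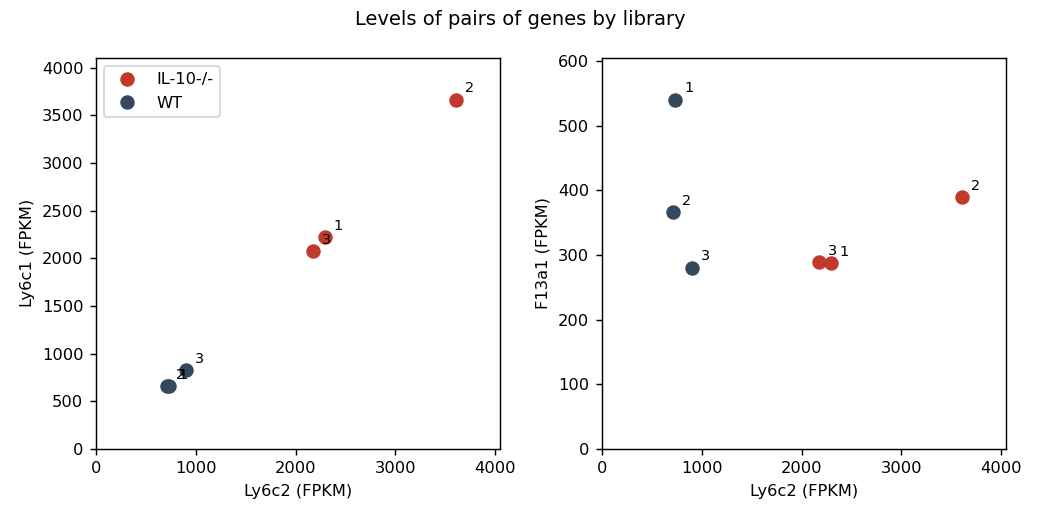
Levels (FPKM, linear axes from 0) of Ly6c1 (left) and F13a1 (right) against Ly6c2 in each library, red for IL-10-/- and dark for WT, with replicate numbers. Ly6c1 follows Ly6c2 across all libraries, whereas F13a1 ranges from 280 to 540 FPKM in WT at Ly6c2 levels of 715 to 903 FPKM. Among the libraries labelled IL-10-/-, F13a1 (390 FPKM) and Ly6c2 (3610 FPKM) were both highest in replicate 2.

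The order of the members by mean level differed between the groups in the place of Ly6e alone. In the samples labelled IL-10-/- it ran Plac8 (4339 FPKM), Ly6c2 (2692), Ly6c1 (2654), Ly6e (2402), Ly6a (1171), Hp (471), F13a1 (322), Vcan (309) and Gpr141 (64.8). In WT it ran Plac8 (2114 FPKM), Ly6e (1945), Ly6c2 (784), Ly6c1 (713), Ly6a (536), Hp (426), F13a1 (396), Vcan (315) and Gpr141 (27.9). The ranges of neighbors in this order overlapped in IL-10-/- from Plac8 to Ly6e and between F13a1 and Vcan. In WT they overlapped between Plac8 and Ly6e, between Ly6c2 and Ly6c1, and from Ly6a to Vcan. The changed place of Ly6e came from IL-10-/- replicate 2, where Ly6e (2571 FPKM) was below Ly6c2 (3610) and Ly6c1 (3666). In IL-10-/- replicates 1 and 3 Ly6e (2452 and 2184 FPKM) was above Ly6c2 (2290 and 2176) and Ly6c1 (2223 and 2074), as in WT. Together the 9 genes held 1.42%, 1.79% and 1.22% of the summed FPKM in the samples labelled IL-10-/- and 0.813%, 0.641% and 0.663% in WT.

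By their pattern over the 6 libraries, the genes most like Ly6c2 among 8351 with a mean of at least 5 FPKM were Ly6c1 (r = 0.9998), Tmem254a (0.995), Itgb7 (0.985), Ms4a4c (0.984) and Mnda (0.984). Those most like F13a1 were Camk1d (0.987), Slc36a4 (0.974), Imp4 (0.972), Kdm4a (0.969) and Tmem19 (0.968). Hp was matched most closely by Lilra6 (0.988), Rnf34 (0.986) and Pirb (0.983). With 6 points and this many genes, such values describe these libraries only.

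Other genes of classical monocytes were mixed in direction. Of 24 listed genes, all tested, 1 rose (Ly6i, which is also a Ly6 gene) and none fell from limma (7 higher and 3 lower at an unadjusted p under 0.05), and the median log2 difference was 0.017. In 9 of the 24 all libraries labelled IL-10-/- were above all WT libraries (7.8% of all genes tested), and in 2 below (7.59%). Ms4a4c, a tetraspan surface protein of monocytes, was at 1865, 2476 and 2130 FPKM in the samples labelled IL-10-/- and at 1186, 1251 and 1296 FPKM in WT (log2 difference 0.78, adjusted p = 0.11). Ccr2, the receptor that brings classical monocytes out of the marrow, had a log2 difference of 0.62 (adjusted p = 0.24), and Lyz2, which encodes lysozyme, of 0.83 (adjusted p = 0.22). None of these 3 passed the test, and all had groups that did not overlap. On the lower side were Cd14, the co-receptor for bacterial lipopolysaccharide (log2 difference -0.62, adjusted p = 0.33), and the chemokine gene Ccl9 (-0.53, adjusted p = 0.34), also without overlap, and the transcription factor gene Klf4 (-0.51, adjusted p = 0.42), with overlap. None of these passed either.

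Genes of nonclassical monocytes, the Ly6C-low patrolling cells, gave no calls. Of 15 tested, 0 passed limma's test (1 higher and 4 lower at an unadjusted p under 0.05), with a median log2 difference of -0.23. Itgax, which encodes the integrin CD11c, had a log2 difference of -0.80 and Eno3, an enolase gene, of -0.75 (adjusted p = 0.16 each). Cx3cr1, the fractalkine receptor that defines these cells, was low throughout, at 0.766 to 1.42 FPKM in the samples labelled IL-10-/- and 1.04 to 1.40 FPKM in WT. The 10 macrophage identity genes also had 0 calls (1 higher and none lower at an unadjusted p under 0.05), with a median of 0.098. Csf1r, the receptor of the macrophage growth factor, had the smallest p among them (log2 difference 0.44, adjusted p = 0.29). Of 14 genes of resident macrophages of the serous cavities, 0 passed (none higher and 1 lower at an unadjusted p under 0.05). Their summed level was 380 to 2077 FPKM in the samples labelled IL-10-/- and 479 to 1745 FPKM in WT, lowest in IL-10-/- replicate 3 and WT replicate 1. Without both of these libraries, a setting chosen after seeing the data, 3 members passed the test, Ly6c1, Ly6c2 and Ly6a (adjusted p = 0.034, 0.0353 and 0.0425), and Gpr141 did not (0.0693). Over all genes 280 passed in this setting, against 128 with all libraries, each symbol counted once.

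Interferon-inducible genes are given beside Ly6a and Ly6e. Of 24 listed genes outside the Ly6 family, 9 rose and none fell from limma (21 higher and 0 lower at an unadjusted p under 0.05), with a median log2 difference of 1.15. The number that rose was 3 to 7 without 1 library, lowest without WT replicate 3. Iigp1, an immunity-related GTPase gene, had a log2 difference of 2.55 (adjusted p = 0.0065), Gbp5, a guanylate-binding protein gene, of 1.65 (adjusted p = 0.0049) and Cmpk2, a nucleotide kinase gene, of 1.49 (adjusted p = 0.0031). Ly6c1, Ly6c2 and Ly6a lay within the range of this list and Ly6e just below its lowest value of 0.33. Plac8 (1.02) and Gpr141 (1.20) lay within this range too, as did genes of other lists such as Lyz2 (0.83).

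**Figure D5:**
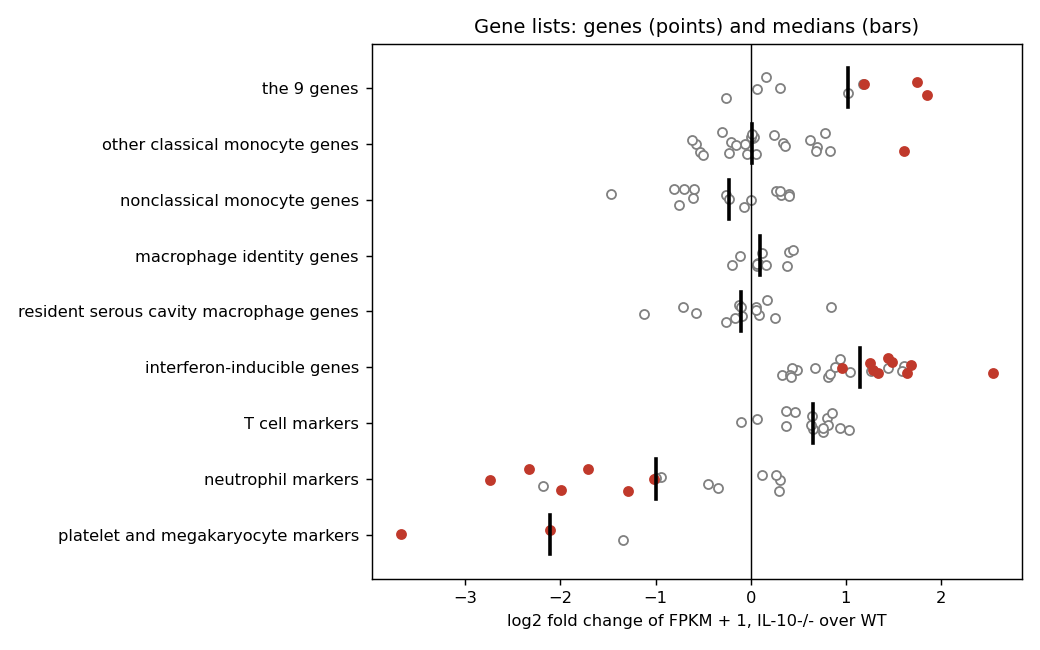
Log2 difference of FPKM + 1 (IL-10-/- over WT) of each tested gene (points, red at an adjusted p under 0.05) and the median (black bar) of the 9 genes and 8 gene lists. The median is 1.02 for the 9 genes, 0.017 for other classical monocyte genes, 1.15 for interferon-inducible genes and -0.99 for neutrophil markers, with genes that passed the filter through 1 group alone left out.

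The partners of the secreted products are given for comparison with them. Of 9 tested genes of hemoglobin and heme handling, leaving out 1 that passed the filter through 1 group alone, 2 fell and none rose. Cd163, the scavenger receptor of hemoglobin, was at 9.42, 7.40 and 11.8 FPKM in the samples labelled IL-10-/- and at 65.6, 40.8 and 37.5 FPKM in WT (log2 difference -2.19, adjusted p = 0.0067). Hmox1, the heme oxygenase gene, had a log2 difference of -1.27 (adjusted p = 0.025), while Hp overlapped between the groups. The Cd163 call held without each library in turn. That of Hmox1 was lost in 4 of the 6 such fits, without IL-10-/- replicate 1 or 2 or WT replicate 2 or 3 (adjusted p = 0.086 to 0.12). Among genes of clotting, Thbd, which encodes thrombomodulin, had a log2 difference of -0.96 (adjusted p = 0.11). F13b, the partner subunit of F13a1, did not pass the filter and was listed at 0 in 2 of the samples labelled IL-10-/- and in 2 WT libraries. Of 6 tested partners and processing enzymes of versican, 0 passed the test from limma, at an unadjusted p under 0.05 as well, with a median of -0.022.

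Markers of other cells that carry these transcripts moved in part with the groups. T cells carry Ly6C and Sca-1. The 16 T cell markers summed to 94.7 to 198 FPKM in the samples labelled IL-10-/- and to 67.8 to 94.7 FPKM in WT. Apart from 1 that passed the filter through 1 group alone, 14 of 15 had log2 differences above 0 (median 0.66, none past the test from limma, 6 higher and 0 lower at an unadjusted p under 0.05). Cd3e was at 2.72 to 8.47 FPKM in the samples labelled IL-10-/- and at 2.01 to 3.21 FPKM in WT. IL-10-/- replicate 1 had the highest sum of these markers, whereas Ly6c1, Ly6c2 and Ly6a were highest in replicate 2. The part of T cells in the Ly6 levels was not tested. The 9 endothelial markers in the table summed to 5.82 to 9.07 FPKM in the samples labelled IL-10-/- and to 9.77 to 10.6 FPKM in WT, and 7 of them, Cdh5 and Kdr included, stayed under 1 FPKM in all libraries. The 8 NK cell and 7 B cell markers tested had medians of -0.68 and -0.61, with 0 calls each (0 higher, and 2 and 4 lower, at an unadjusted p under 0.05 from limma).

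Hp is also a gene of neutrophils and F13a1 one of platelets. Of 15 neutrophil markers tested apart from Ly6g, 6 fell and none rose, and 4 had log2 differences above 0 (median -0.99). These 4 were Ltf (0.30), Camp (0.27), Padi4 (0.30) and Cd177 (0.12), all with overlapping groups. The sum of all listed markers was 902 to 1527 FPKM in the samples labelled IL-10-/- and 3475 to 5211 FPKM in WT. A few abundant markers made up most of each sum. Csf3r, the receptor of granulocyte growth factor, had a log2 difference of -1.01 (adjusted p = 0.025), Retnlg of -1.71 (adjusted p = 0.026) and Lcn2 of -1.29 (adjusted p = 0.036). Without 1 library the number that fell was 0 (without WT replicate 2 or 3), 1 (without WT replicate 1 or IL-10-/- replicate 1) or 4 (without IL-10-/- replicate 2 or 3). The call of Csf3r held in 2 of these 6 fits and those of Retnlg and Lcn2 in 1 each (adjusted p up to 0.10, 0.11 and 0.15). Platelet and megakaryocyte markers summed to 484 to 936 FPKM in the samples labelled IL-10-/- and to 2596 to 3307 FPKM in WT, and 2 of 3 tested fell. These were Ppbp and Pf4, chemokine genes of platelet granules, with log2 differences of -3.67 and -2.11 (adjusted p = 0.021 and 0.018). Both calls were lost without WT replicate 3 or IL-10-/- replicate 1, and that of Pf4 also without WT replicate 2 or IL-10-/- replicate 2 (adjusted p up to 0.079 for Ppbp and 0.086 for Pf4). Gp9 and Itga2b, which define platelets, did not pass the filter and were not tested. Gp9 averaged 0.221 FPKM in the samples labelled IL-10-/- and 1.73 FPKM in WT, and Itga2b 0.567 and 1.98 FPKM in these groups. Neither gene overlapped between the groups, as 15.4% of all genes tested did not. Itga2b was barely apart, with a highest value of 0.714 FPKM in IL-10-/- and a lowest of 0.763 FPKM in WT. The other low platelet markers, Gp1bb, Gp1ba, Gp6, Tubb1, Treml1 and Clec1b, had overlapping groups. Pf4 and Ppbp made up nearly all of the platelet sums. Of 11 fibroblast and mesothelial markers, which bear on Vcan and Ly6a, the sum was 5.96 to 14.0 FPKM in the samples labelled IL-10-/- and 9.57 to 23.2 FPKM in WT. The part of these cells in the levels of Hp, F13a1 and Vcan was not tested.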

How the data were processed

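MPE macrophages of 3 IL-10-/- and 3 WT mouse samples were compared, grouped by the genotype in their labels. The authors deposited 1 table of FPKM per gene and library, made from poly(A) RNA (NEBNext Ultra kit, paired-end 150 base reads). The submitters' processing notes name GRCm38. The sources used here give no aligner, counter, annotation release or use of strand. The sums of FPKM differed between libraries (885310 to 1125015), whereas their upper quartiles lay between 11.7 and 12.2. Columns with the authors' own fold changes, p-values and marks were not used. No counts were used, so no count test was run.

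A gene was tested where 3 of the 6 libraries reached 1 FPKM. The test was limma's (version 3.58.1, R 4.3.3, genotype as the only term, variance trend), two-sided, on log2(FPKM + 1). P-values were adjusted by Benjamini-Hochberg over 11838 genes, and every adjusted p in the text is from this fit unless a setting is named. This scale understates the change of low genes. Genes of the lists below 1 FPKM in all libraries of 1 group and at or above it in all of the other were left out of counts and medians, a step added after seeing the data. Rose and fell mean an adjusted p under 0.05. Single sums were compared by exact permutation. The fitting code was tested on simulated data. The members and the gene lists were chosen with earlier results of these data known, and lists are described by counts and medians only. The named genes were taken from the members, at most 3 genes past the test and the 2 with the smallest p in each list, the 2 most abundant markers of each other cell type, and the 5 genes most correlated with Ly6c2, F13a1 and Hp, some being left out. Ccr2, Lyz2, Cd14, Ccl9, Klf4, Ly6d, Plaur, Them6, Gm5960 and defining markers of cell types (Adgre1, Cx3cr1, Cd3e, Cdh5, Kdr, Itga2b, Gp9) and F13b were added after their values were seen. So were the neutrophil markers above 0 and the platelet markers with overlapping groups. Some results are not reported here. Transcripts and strand came from the GENCODE mouse annotation, release 21, and upstream sequences from RefSeq (GRCm38.p6), in which 6 of the 9 members were matched. Sequences were aligned with Biopython 1.88.

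Alternatives were a pseudocount of 0.1, no filter, a minimum of 5 FPKM, quantile normalization, rescaling to 1 common sum as TPM does, no variance trend, array weights, a replicate block and each library left out.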

Additional observations from a re-analysis of the deposited data

How the results depend on the processing

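The number of members that rose was 3. It was 5 with libraries rescaled to 1 common sum and with array weights, Plac8 and Ly6a being added in both, and 0 with no filter on low values. Leaving out the filter also raised the number of genes tested, and the cause of the lost calls was not tested. Without 1 library the number of members that rose ran from 0 (without WT replicate 2 or WT replicate 3) to 2. The number of all genes past the test moved too. It was 128 (each symbol counted once), against 143 with rescaling, 481 with array weights, 31 with no filter, and 39 to 139 without 1 library (50 without WT replicate 2 and 39 without WT replicate 3). By the rule of a 2-fold change with an unadjusted p under 0.05 the number was 5, against 3 without both IL-10-/- replicate 3 and WT replicate 1, a setting added after seeing the data, and 3 to 5 without 1 library (3 without WT replicate 1). The log2 difference of the summed Ly6c1 and Ly6c2 ran from 1.56 to 1.94 without 1 library. Rescaling moved the median of all genes to 0.072.

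Vcan (0.065 with all libraries, 0.45 without WT replicate 1) changed sign without WT replicate 2 (-0.012), without WT replicate 3 (-0.25) and without IL-10-/- replicate 3 (-0.11). F13a1 did so with array weights (0.026) and without both IL-10-/- replicate 3 and WT replicate 1 (0.061), and the cause was not tested. The other 7 members kept their sign in every setting run. Replicate numbers were not taken to pair the libraries. The deviations of libraries with the same number correlated at 0.09, 0.20 and 0.09 across genes, and every library correlated best with its own number, which is a hint from the data and not the design. With the replicate block 2 members rose, Ly6c1 and Ly6c2 (adjusted p = 0.049 each), Gpr141 did not pass (0.090), and 60 of all genes passed.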

Other observations

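Some further transcripts were chosen after their values were seen. I830127L07Rik, a gene model between Ly6c2 and Ly6g, averaged 417 FPKM in the samples labelled IL-10-/- and 161 FPKM in WT (log2 difference 1.31, standard error 0.46, adjusted p = 0.32 from limma), with overlapping groups. Thbs1, which encodes thrombospondin 1, and Chil3, a chitinase-like gene, are further products of classical monocytes. Thbs1 was at 1277, 1288 and 1391 FPKM in the samples labelled IL-10-/- and at 3042, 2018 and 1222 FPKM in WT. Chil3 was at 1533, 2165 and 1835 FPKM in the samples labelled IL-10-/- and at 2896, 1907 and 1058 FPKM in WT. In both, as in Hp, Vcan and F13a1, WT replicate 1 was the highest of the 6 libraries and WT replicate 3 the lowest.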
